A study of Homo sapiens with 2 samples.

Results

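The genes described here are the DNA methyltransferase genes DNMT1, DNMT3A and DNMT3B and the TET genes TET1, TET2 and TET3, each through the H3K27ac peaks that touched its gene body or the 10 kb on either side by 1 bp or more. The 6 windows held 34 of the 52203 peaks called, 19 at the DNMT genes and 15 at the TET genes. H3K27ac, histone H3 acetylated at lysine 27, sits on promoters and enhancers in use and had been mapped by ChIP-seq in LOUCY, an established cell line from a human T-cell acute lymphoblastic leukaemia, grown without any treatment the labels name. The series held 1 H3K27ac ChIP library, with 54357332 tags kept by the peak caller, and 1 of input DNA, chromatin sheared but not precipitated, with 71932640. There were no replicates, so every value describes this library pair, no difference was tested, and the line stands for 1 leukaemia grown in culture. Fold stands throughout for the authors' deposited fold enrichment of a peak, the ratio of ChIP to local input signal, and ranks count from the highest of the 52203 peaks.

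DNA methyltransferases write methyl groups on cytosine, mostly where a guanine follows (CpG). DNMT1 copies the pattern onto the new strand after replication, while DNMT3A and DNMT3B set methylation at sites that had none. The TET proteins oxidise methylcytosine, which leads to its removal. DNMT3A and TET2 are well known from blood, where mutations that impair them are frequent in clonal haematopoiesis and occur in leukaemias. DNMT3A and TET1 are both known to have start sites inside the gene that give shorter proteins without part of the amino terminus. A peak of H3K27ac is a measurement on chromatin and gives no level of RNA or protein.

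The start sites of these genes matter to what follows, and the sequences before 7 of them are shown, those of the genes where a peak did or did not lie at a listed start. They are the 250 bases before the start in RefSeq, build GRCh38.p14, read towards the gene, and capitals mark each CpG. All 6 genes matched that table by symbol. For DNMT3B and TET3 its first start did not lie at the edge of the gene in RefSeq, and no sequence is shown for them. The bases are those of the reference, not read from LOUCY.
DNMT1, first listed start (chr19:10194954-10195203, minus strand): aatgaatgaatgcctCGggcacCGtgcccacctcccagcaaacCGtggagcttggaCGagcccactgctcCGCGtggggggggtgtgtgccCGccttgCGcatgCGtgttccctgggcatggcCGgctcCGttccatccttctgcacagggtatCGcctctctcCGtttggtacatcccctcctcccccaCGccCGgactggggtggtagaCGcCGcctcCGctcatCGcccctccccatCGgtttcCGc
DNMT3A, first listed start (chr2:25342591-25342840, minus strand): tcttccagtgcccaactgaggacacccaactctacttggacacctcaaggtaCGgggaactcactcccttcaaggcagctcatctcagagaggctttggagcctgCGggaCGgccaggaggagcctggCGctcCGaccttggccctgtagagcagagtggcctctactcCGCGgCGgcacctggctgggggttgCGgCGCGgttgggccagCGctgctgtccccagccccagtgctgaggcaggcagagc
DNMT3A, internal start (chr2:25252316-25252565, minus strand): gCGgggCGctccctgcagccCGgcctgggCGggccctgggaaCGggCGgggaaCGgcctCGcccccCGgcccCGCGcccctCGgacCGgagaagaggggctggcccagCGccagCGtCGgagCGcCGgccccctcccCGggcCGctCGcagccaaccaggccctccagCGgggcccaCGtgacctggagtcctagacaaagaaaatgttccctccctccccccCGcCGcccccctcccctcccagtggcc
TET1, first listed start (chr10:68560087-68560336, plus strand): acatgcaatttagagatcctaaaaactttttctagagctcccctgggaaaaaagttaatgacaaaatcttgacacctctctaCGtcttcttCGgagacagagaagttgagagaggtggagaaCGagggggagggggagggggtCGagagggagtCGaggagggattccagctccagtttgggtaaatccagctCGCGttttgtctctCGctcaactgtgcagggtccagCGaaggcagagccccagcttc
TET1, internal start (chr10:68600018-68600267, plus strand): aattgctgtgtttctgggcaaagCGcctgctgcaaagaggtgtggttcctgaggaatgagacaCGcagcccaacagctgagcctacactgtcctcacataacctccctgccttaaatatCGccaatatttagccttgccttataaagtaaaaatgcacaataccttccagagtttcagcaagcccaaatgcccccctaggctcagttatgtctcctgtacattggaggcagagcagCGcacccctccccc
TET2, first listed start (chr4:105145625-105145874, plus strand): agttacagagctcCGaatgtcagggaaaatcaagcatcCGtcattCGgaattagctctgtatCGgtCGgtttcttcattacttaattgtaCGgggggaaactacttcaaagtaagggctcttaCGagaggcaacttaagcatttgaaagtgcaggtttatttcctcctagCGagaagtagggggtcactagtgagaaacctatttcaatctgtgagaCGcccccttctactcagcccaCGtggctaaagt
TET2, second listed start (chr4:105146626-105146875, plus strand): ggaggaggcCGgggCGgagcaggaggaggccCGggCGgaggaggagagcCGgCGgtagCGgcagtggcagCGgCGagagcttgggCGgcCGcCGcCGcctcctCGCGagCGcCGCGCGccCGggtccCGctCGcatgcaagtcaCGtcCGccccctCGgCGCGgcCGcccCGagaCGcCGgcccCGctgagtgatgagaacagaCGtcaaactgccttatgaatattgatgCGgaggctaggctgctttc

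CpG density varied among these stretches. The stretch before the second start of TET2 held 34 CpG, more than 93.2% of the 35116 windows of that length in the table, whose median was 11. That before the first start of DNMT1 held 21, and that before the internal start of DNMT3A held 25. The first starts of DNMT3A, TET2 and TET1 had 12, 10 and 9, near the median, and the internal start of TET1 shown had 4. Listed starts close to those shown could differ. Outer starts of DNMT3A 0.107 and 0.665 kb after the first had 21 and 33 CpG. Its internal starts at 90.33 and 90.46 kb had 22 and 15, and the internal start of TET1 at 40.1 kb had 11. The letters GGGCGG, on either strand, occurred 3 times before the internal start of DNMT3A and 5 times before the second start of TET2, and at least once in 42.6% of all windows. CACGTG, which reads the same on both strands, occurred once each before the first start of TET2 and the internal start of DNMT3A, and in 6.34% of all windows. CCGGAAG, on either strand, was in none of the 7 stretches and in 8.52% of all windows. These motifs do not overlap one another as written, and a match is only a run of letters.

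H3K27ac was called at the start-side edge of 5 of the 6 genes, within 1 kb of it, and TET2 was the gene without such a peak. Of all positions on the 22 autosomes and chromosome X, 8.14% had a peak within 1 kb. That share covers positions of every kind, and the share of gene starts with a peak was not counted. Gene edges were known to 1 kb, which is also the precision of the distances to them. The fold at the start-side edge was 11.7 at DNMT1, 8.94 at TET3, 7.62 at DNMT3B, 5.50 at DNMT3A and 4.50 at TET1. At DNMT1 and TET3 this peak was also the strongest of the window. At DNMT3A, TET1 and TET2 the strongest peak lay inside the gene, and at DNMT3B it straddled the far end of the window. The 34 peaks had a median fold of 3.66 and a median width of 2890 bp, beside 3.08 and 1670 bp over all peaks. Folds of at least 6 were found in 10 of the 34, or 29.4%, and in 23.2% of all peaks. Folds of at least 10 were found in 3 of the 34, and in 5.21% of all peaks. A fold below 3 was found in 14 of the 34, and in 48.2% of all peaks. These shares lie near those of the whole list, and nothing is read from them about the genes as a group.

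**Figure D1:**
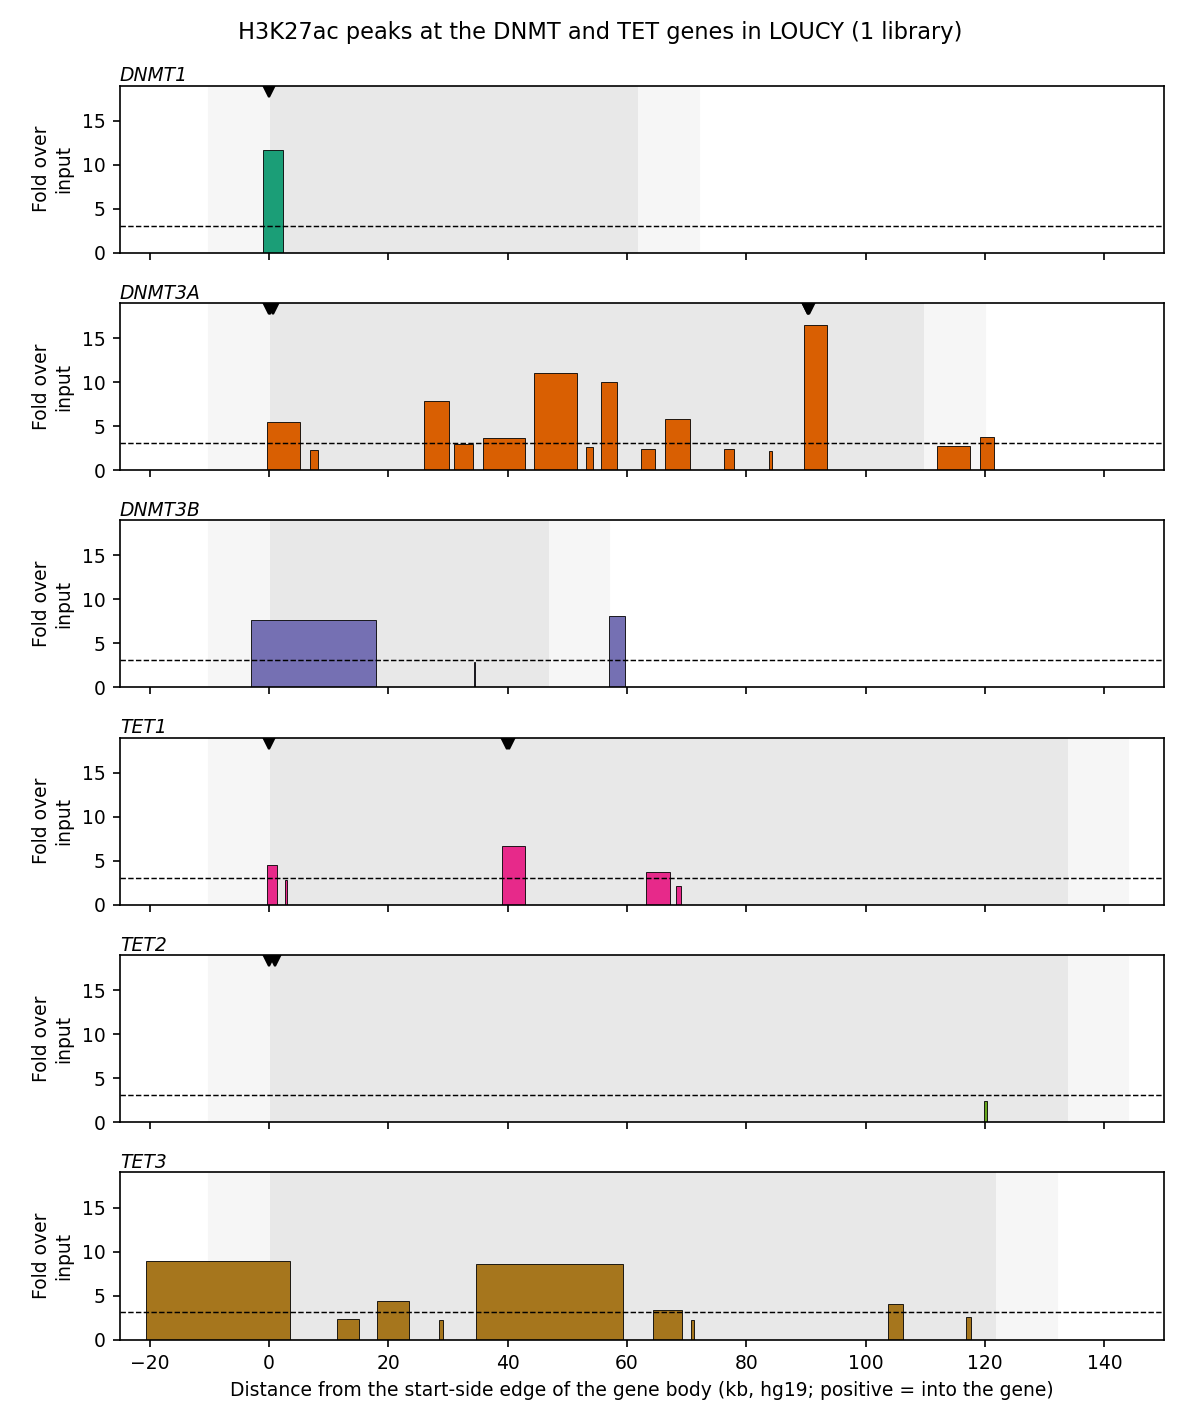
H3K27ac peaks at each gene as bars from their start to their end (x axis, kb from the start-side edge of the gene body in hg19) with fold over input as height (y axis), gene bodies in grey, the 10 kb on either side in light grey and the median fold of all peaks, 3.08, as a dashed line. Triangles are RefSeq starts placed by their distance from the first listed start within GRCh38.p14. DNMT1 had 1 peak at its start, the highest bar of DNMT3A and of TET1 stood at the distance of an internal start, a match of distance between builds, and TET2 had 1 low bar far from its starts.

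DNMT1, the maintenance enzyme, had the simplest pattern, a single strong peak at its start and nothing else in its window. The peak lay at chr19:10303597-10307064 in hg19, was 3468 bp wide and had a fold of 11.7 with a -log10 p of 81.8. It ranked 1122 by fold, so that 97.9% of all peaks had a lower one. It reached from 1.06 kb before the edge of the gene to 2.40 kb inside it. Only 3.88% of the gene body lay under a peak, below the 8.77% of chromosome 19 as a whole. Chromosome shares, here and below, take in sequence outside genes, and the share over all gene bodies was not counted. Chromosome 19 also had a high median fold, 5.26 over 1780 peaks, which the peak at DNMT1 exceeded. The nearest peak outside the window, at chr19:10229666-10230905 with a fold of 7.63, lay 3.10 kb beyond it on the side where EIF3G is the next protein-coding gene in RefSeq.

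DNMT3A, a de novo enzyme, carried the most peaks of the 6 genes and the strongest of all 34. Its window held 15 peaks, which covered 40.2% of the gene body against 5.05% of chromosome 2. The strongest peak lay at chr2:25472447-25476316, was 3870 bp wide and had a fold of 16.5 with a -log10 p of 102, rank 81 by fold. The peak at the start-side edge (chr2:25560876-25566307, 5432 bp) had a fold of 5.50, rank 13705. The strongest peak of DNMT3A was thus not at the outer start of the gene.

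It spanned the stretch from 89.7 to 93.6 kb inside the gene, measured in hg19 from the outer edge. In GRCh38.p14, RefSeq lists 3 starts of DNMT3A at the outer edge, within 0.665 kb of each other, and 3 internal ones from 90.3 to 90.5 kb further in, the first of which is shown above. The distances were measured in each build separately, and no position was converted between builds, so the match is one of distance. The internal starts are those of the short form of the enzyme, known as DNMT3A2, which is best known from germ cells and embryonic stem cells.

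Between the outer start and the internal one, a row of peaks of varied strength lay in the body of DNMT3A. The strongest of them were at chr2:25514389-25521520 (7132 bp, fold 11.1, rank 1585), chr2:25507736-25510434 (2699 bp, fold 9.99, rank 2733) and chr2:25535821-25539979 (4159 bp, fold 7.80). That at chr2:25495518-25499716 had a fold of 5.75. These peaks stood between 26.0 and 70.5 kb inside the gene, away from the distances of either group of starts. A further 7 peaks of the gene body had folds from 2.22 to 3.64, around or below the median of 3.08 over all peaks. The 2 peaks beyond the far end of the gene, on the side of POMC and EFR3B, had folds of 2.74 and 3.81.

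Regions were made by joining peaks across gaps of up to 12500 bp, and each was ranked by fold times width summed over its peaks. In this way 11 peaks of DNMT3A formed a domain of 67.5 kb (chr2:25472447-25539979), from the strongest peak to 26.0 kb inside the gene. It ranked 517 of 25510 such regions and was among the 1421, or 5.57%, past the point where the rank curve turns steep. Over the alternatives for joining, ranking and thresholds, the best-ranked region over DNMT3A ranked from 513 to 1329. At a -log10 q threshold of 10, which gave 1329 of 15235 regions, none over the gene was past that point. There the strongest peak was parted from the rest of the domain. It was parted too with joining within 5 kb (rank 629 of 35140) and at a fold of at least 3 (744 of 19290). The peak at the outer start was not part of the 67.5 kb domain. It formed a region of 8.56 kb with 1 weak neighbour, rank 6834.

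DNMT3B, the other de novo enzyme, had a single broad peak over its start and almost none in the rest of the gene. The start peak, at chr20:31346892-31367842, was 20951 bp wide, which ranked 458 by width, and had a fold of 7.62, rank 7451. It began 3.11 kb before the edge and ran 17.8 kb into the gene, covering nearly all of the acetylated 38.4% of the gene body. Chromosome 20 was covered to 6.58%. The other peak in the body was 204 bp wide, the smallest width in the list, with a fold of 2.89. The strongest peak of the window (chr20:31406891-31409569, fold 8.13) began 0.109 kb inside its far end, on the side where MAPRE1 is the next gene, and its place in the window depended on the rounding of the edge.

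On its other side, towards COMMD7 and NOL4L, DNMT3B adjoined a long stretch that was largely under peaks. The 320 kb before the gene (chr20:31030000-31350000) held 33 peaks, the start peak of DNMT3B among them, and 54.9% of it lay under a peak. The strongest was at chr20:31245838-31277298, 31461 bp across (rank 130 by width) at a fold of 14.6 (rank 214), from 72.7 to 104 kb before the edge of DNMT3B. Next by fold were peaks at chr20:31066581-31075041 (8461 bp, fold 11.9) and chr20:31108589-31135861 (27273 bp, fold 9.95). The nearest of a fold above 6, at chr20:31328300-31334317 (6018 bp, fold 7.51), lay 15.7 kb before the edge. Of the 33 peaks, 8 had a fold of at least 6, beside 23.2% of all peaks, and 18 had a fold below 3, beside 48.2% of all peaks. By fold the stretch was near the whole list.

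With all peaks joined across 12500 bp, the start peak of DNMT3B was the last of 28 in a domain of 276 kb that ranked 3 of 25510. That rank was not a property of DNMT3B on its own. When only peaks with a fold of at least 3 were joined, the region over DNMT3B ranked 1048, at a -log10 q of at least 10 it ranked 983, and with joining across 5 kb it ranked 953, since the start peak was then parted from the stretch upstream. At the first 2 of these thresholds the region over DNMT3B was not past the steep point of the rank curve. In the full list it was joined through a peak of 331 bp with a fold of 2.51 (chr20:31337923-31338253), without which the gap was 12.6 kb. Ranked by width alone or by implied pileup times width, the domain was rank 6 both times. Implied pileup is the ChIP level before division by input, estimated from the fold and p-value of a peak. The peaks were not assigned to a target gene.

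**Figure D2:**
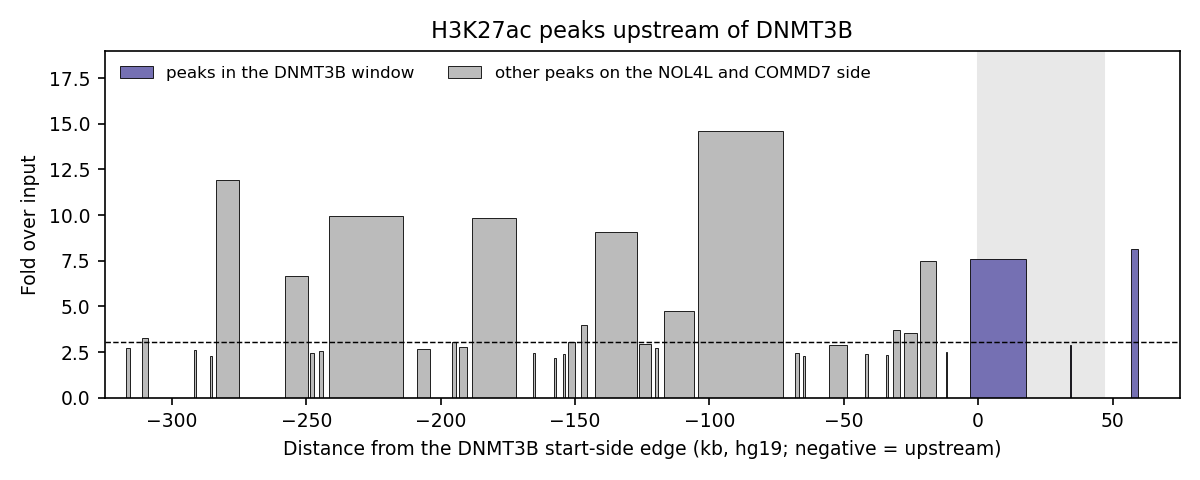
H3K27ac peaks on the NOL4L and COMMD7 side of DNMT3B (grey bars) and in the window of DNMT3B (coloured bars), as distance from the start-side edge of DNMT3B in kb (x axis) and fold over input (y axis), with the gene body shaded and the median fold of all peaks, 3.08, dashed. The highest bar, fold 14.6, stood from 72.7 to 104 kb upstream, and the start peak of DNMT3B had a fold of 7.62.

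TET1, which carries a CpG-binding CXXC domain in its full-length form, had a modest peak at its outer start and a stronger one inside the gene. The start peak (chr10:70319573-70321341, 1769 bp) had a fold of 4.50, rank 17326. The strongest peak (chr10:70359055-70362815, 3761 bp) had a fold of 6.66 with a -log10 p of 44.9, rank 10107, which was 1.48 times the fold at the start. It spanned 39.1 to 42.8 kb inside the gene. RefSeq lists a pair of internal starts of TET1 at 39.9 and 40.1 kb after the first one in GRCh38.p14, again a match of distance only. TET1 therefore shared with DNMT3A a strongest peak at the distance of an internal start, there at a lower fold.

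Input differed between the peaks of TET1. The implied input level, the control level at which a peak's fold would have its p-value, was 12.5 there against 6.26 at the start peak and a median of 6.34 over all peaks. By implied pileup, the ChIP level before division, worked out from fold and implied input, the internal peak ranked 2850 and the start peak 19398. The role of the high input in this peak was not tested. The other 3 peaks of TET1 had folds of 2.18, 2.84 and 3.67, and 7.81% of the gene body lay under a peak against 5.47% of chromosome 10. Nearest outside the window was a strong peak at chr10:70479830-70482951 (fold 12.8), 15.8 kb beyond it, where CCAR1 is the next gene.

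TET2, the TET gene most often mutated in blood cancers, had almost no H3K27ac that the caller registered. Its window of 154 kb held 1 peak, at chr4:106186760-106187289, 530 bp wide with a fold of 2.35 and a -log10 p of 3.56. That peak lay 119.8 kb inside the gene, ranked 41913 by fold, and had a -log10 q of 2.05. It covered 0.396% of the gene body, below the 3.21% of chromosome 4. No peak lay at either listed start, which are 1.00 kb apart and include the CpG-dense stretch shown above.

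The nearest peak before TET2, at chr4:105982205-105982982 (778 bp, fold 2.86), was 84.0 kb from its start-side edge. The interval without a peak around the start was 204 kb long, and 4.47% of the 52180 intervals between neighbouring peaks were as long or longer, or 7.42% of those on chromosome 4. Both shares count intervals, and a given position lies in a long interval more often than such a count shows. After the gene, the next peak was at chr4:106237042-106240728 (fold 3.29), 36.0 kb beyond its far end, on the side of PPA2. A start outside any listed peak may still carry signal under the threshold. The lowest fold in the whole list was 1.20 and the lowest -log10 p 2.45, and the list does not show signal that the caller left out. DNA methylation and RNA were not measured in this series.

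TET3, the TET gene best known from the egg and early embryo, had the widest peaks of the 6 genes. The peak over its start-side edge, at chr2:74192389-74216570, spanned 24182 bp (rank 304 by width) at a fold of 8.94 (rank 4408). Most of it lay before the gene, reaching 20.6 kb upstream on the side of DGUOK and 3.57 kb into the body. A second peak of nearly the same size, at chr2:74247684-74272321 (24638 bp, fold 8.62, rank 285 by width), lay from 34.7 to 59.3 kb inside the gene. Of the 34 peaks, 3 were 20 kb or wider, this pair and the start peak of DNMT3B, and 0.988% of all peaks were that wide.

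Of the other 7 peaks of TET3, those at chr2:74231111-74236501 (fold 4.40), chr2:74316664-74319328 (fold 3.98) and chr2:74277318-74282269 (fold 3.32) were above the median of all peaks, and 4 had folds from 2.18 to 2.61. RefSeq lists a second start of TET3 17.8 kb after the first in GRCh38.p14, and the first did not lie at the edge of the gene in that table. Together 38.4% of the gene body lay under a peak, against 5.05% of chromosome 2. Joined across 12500 bp, 10 peaks from before the gene to its middle formed a domain of 109 kb (chr2:74174719-74284175) that ranked 168 of 25510. The best-ranked region over TET3 kept a rank between 160 and 517 over the alternatives for joining, ranking and thresholds. With joining within 5 kb the domain was split, and that rank was 517 of 35140. It was split too at a fold of at least 3 (461 of 19290) and a -log10 q of at least 10 (467 of 15235). Each time the start peak was parted from the wide peak in the body.

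**Figure D3:**
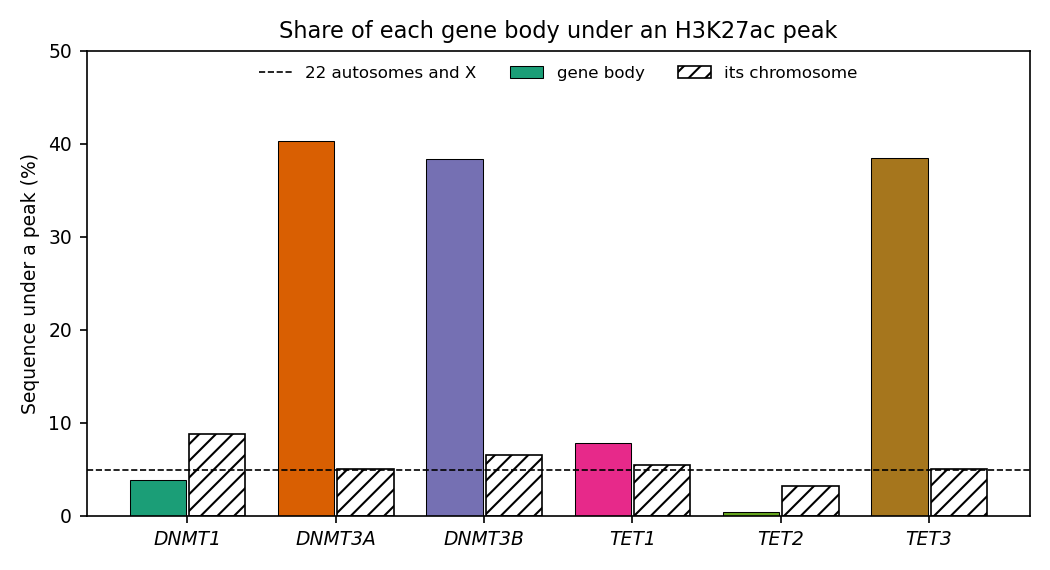
Share of each gene body under an H3K27ac peak in % (coloured bars) beside that of its whole chromosome (hatched bars), with the share of the 22 autosomes and chromosome X, 4.90%, as a dashed line. DNMT3A, TET3 and DNMT3B stood at 38.4% to 40.2%, while TET2 at 0.396% and DNMT1 at 3.88% stood below their chromosomes.

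Both families held broadly acetylated genes and genes with little of the mark. Over the gene bodies, 29.6% of the 219 kb of the DNMT genes and 14.8% of the 390 kb of the TET genes lay under a peak, with 4.90% of the genome under one. The genome share takes in sequence outside genes. With 3 genes in each family these shares describe the genes and were not tested. Within families the spread was wide, 3.88% to 40.2% among the DNMT genes and 0.396% to 38.4% among the TET genes. DNMT1 joined a low share to a fold of 11.7, whereas TET3 reached a high share with a strongest fold of 8.94. Breadth and strength therefore ordered the genes differently. By strongest fold the order was DNMT3A (16.5), DNMT1 (11.7), TET3 (8.94), DNMT3B (8.13), TET1 (6.66) and TET2 (2.35), and by share of the gene body it was DNMT3A, TET3, DNMT3B, TET1, DNMT1 and TET2. TET3 and DNMT3B were level at 38.4%, with edges known to 1 kb. The order of the first 3 by share depended on the setting. With the 10 kb flanks included, TET3 (40.1%) stood above DNMT3A (39.1%) and DNMT3B (31.7%). With the same flanks and only peaks of a fold of at least 4, DNMT3B (31.4%) and TET3 (30.7%) stood above DNMT3A (21.1%). Neighbours in these orders have no replicate check.

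**Figure D4:**
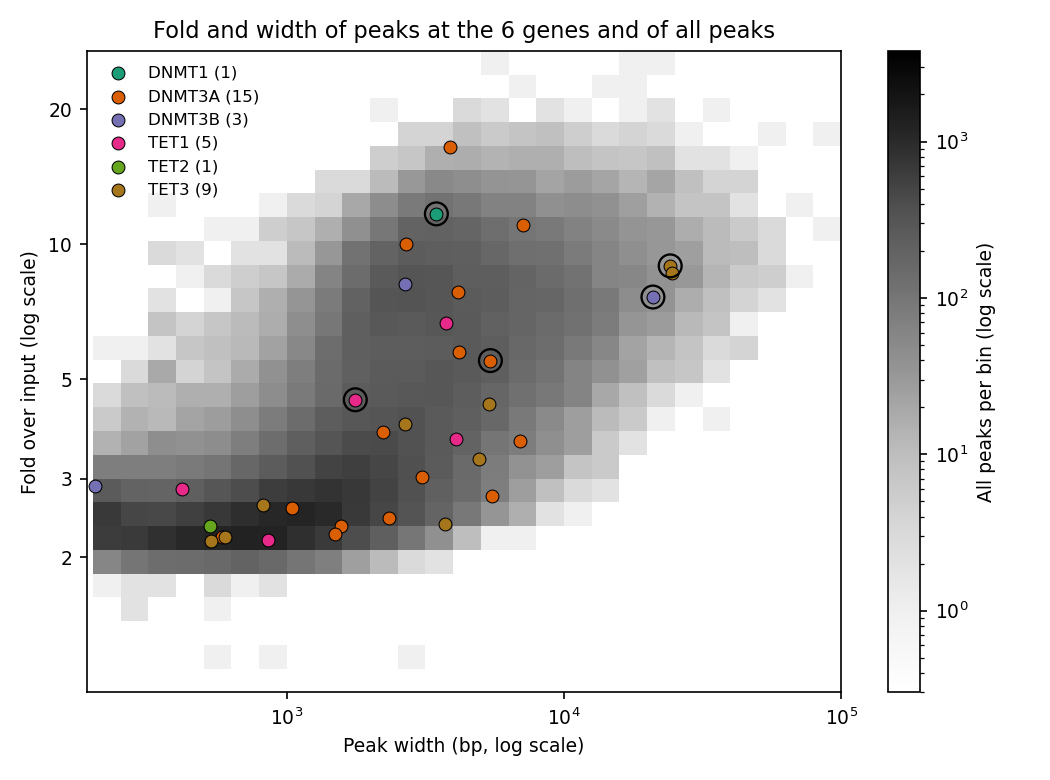
Fold over input (y axis, log scale) against width in bp (x axis, log scale) for the 34 peaks at the 6 genes (coloured points, number of peaks per gene in the legend) over the number of all 52203 peaks per bin (grey). Ringed points are peaks at a start-side edge. The strongest point is the internal peak of DNMT3A at a fold of 16.5, and the 3 widest points are the start peaks of TET3 and DNMT3B and the internal peak of TET3.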

How the data were processed

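H3K27ac ChIP DNA and input DNA of LOUCY were sequenced, 1 library each. Alignment used Bowtie2 (version not given in the sources used here) and hg19, per the submitters' processing notes. Per the file headers, the authors called broad peaks with MACS 2.1.0.20140616, ChIP against input, keeping 1 tag per position, which dropped 13.2% of ChIP and 3.07% of input tags and limits the height of strong peaks. The deposited fold is a ratio of ChIP to local input, and the deposited -log10 p and -log10 q values are the caller's; all are 1 value per broad peak. Pileup as deposited was negative for each of the 52203 peaks and was left out.

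Gene bodies came from a list of hg19 positions rounded to 1 kb, without an hg19 annotation or sequence. A start-side peak lay within 1 kb of the gene edge. The genes and lists were chosen with earlier results of these data known, and all 6 genes are named, with their strongest and start-side peaks in full. A planned count over other genes of the methylation pathway needs an hg19 annotation and was not run. Implied input is the control level that gives a peak both its fold and its Poisson p-value, counting 1 extra on each side of the ratio. The solver was tested only on values simulated with that same formula. Whether the formula holds for the 1 value deposited per broad peak was not tested. Strand, starts and sequences came from RefSeq tables of GRCh38.p14 by symbol, and neighbouring genes from its gene order. The hg19 cytobands of circlize gave the chromosome lengths. Other thresholds, flanks, start windows, joining distances and rankings were tried. Python 3.11.15 was used with scipy 1.17.1, matplotlib 3.10.9, numpy 2.4.6 and pandas 2.3.3.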

Additional observations from a re-analysis of the deposited data

How the results depend on the processing

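The start-side result held for the same count under every threshold and start window tried, 5 of 6 genes. With these peaks, none of the settings could have changed it. The weakest start peak, at TET1 (fold 4.50, -log10 q 11.3), passed every threshold. Start windows were only widened, to 5 kb at most, and the peak nearest the TET2 edge was 84.0 kb away. The number of peaks in the 6 windows was 19 with -log10 q at or above 5, and 14 with -log10 q at or above 10 or fold at or above 4, against 34 in the whole list, because weak peaks left. The covered share of the windows, 19.7% in the whole list, was 16.5% with -log10 q at or above 5 and 13.9% under the other 2 thresholds. It was 19.6% by peak centre, 20.1% without flanks and 20.6% with flanks of 25 kb. The single peak of TET2 was lost under each of the 3 thresholds. Genes with a domain past the steep point of the rank curve numbered 3 (DNMT3A, DNMT3B and TET3). There were 2 with fold at or above 3 (without DNMT3B) and 1 with -log10 q at or above 10 (TET3). At both thresholds the start peak of DNMT3B was parted from the stretch upstream, and the strongest peak of DNMT3A from its domain. With joining within 5 kb both were parted as well, and the count stayed 3. The part of these splits in the counts was not tested. Moving the gene edges by 500 bp, an alternative chosen after seeing the data, gave 34 peaks outward and 33 inward. No paired analysis was possible because each group is 1 library. With 1 library pair, no value has a replicate check, and depth limits what lies under the caller's threshold.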
